A study of Mus musculus with 37 samples.

Results

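The Arrest arm was compared with itself over time: 4 left ventricles taken 1 day and 4 taken 7 days after cardiac arrest and resuscitation, 8 of the 37 libraries of the series. Of the 56748 genes in the deposited table, 13248 (23.3%) had at least 0.5 FPKM (fragments scaled to gene length and to the depth of the library) in 4 or more of these 8 libraries and were compared on log2(FPKM + 1). No Naïve library entered the comparison. The question was how far the myocardium shortly after resuscitation differed from the myocardium a week later. All mice were young adult C57BL/6J animals of both sexes, anesthetized with isoflurane. Arrest mice were intubated, received potassium chloride into the left ventricle until asystole, and were resuscitated after some minutes with adrenaline and chest compressions. Adr mice, which the labels call sham, received saline in place of potassium chloride and then the same adrenaline, so they were ventilated, injected and given adrenaline but never arrested. The RNA came from left ventricle without the apex, after the blood had been washed out. Each time point is a separate set of mice, and the hearts at 7 days came from the mice that lived that long, since some Arrest mice died earlier. The labels tie no library to a named animal, so the p-values below measure the spread between these samples. In bulk tissue, fewer cells of a type and less RNA per cell cannot be told apart.

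After a period without flow, the return of oxygenated blood brings oxidative stress and calcium overload to the heart, and injured tissue releases signals that draw in neutrophils and monocytes. Cytokines of the interleukin-6 family act through the receptor subunit gp130 and the transcription factor STAT3, which switches on secreted acute phase proteins and its own inhibitor. Circulating adrenaline and glucocorticoids change metabolic and inflammatory genes at the same time, while later stages of repair involve antigen-presenting cells, matrix turnover and regrowth of vessels.

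The libraries at 1 day held 13.97 to 16.1 M fragments (M stands for mega) counted on genes and those at 7 days 13.76 to 28.54 M, with replicate 4 at 7 days the deepest. Exact permutation tests gave two-sided p = 0.771 for the fragments, 0.514 for the number of genes above 0 and 0.486 for the share of mitochondrial fragments between the groups. All 8 libraries carried ventricular cardiomyocyte transcripts. Replicate 2 at 7 days also carried atrial transcripts, with Myl7, the atrial myosin light chain, at 157 FPKM against 0 to 7.69 in the other 7 libraries, Myl4 at 24.9 and Sln at 19.1. Replicate 1 at 7 days held 65.5 FPKM of the airway gene Scgb1a1, which was at or below 2.89 elsewhere. Without replicate 2 at 7 days 455 genes were called, and without replicate 1 at 7 days 412, against 901 with all 8 libraries. By Xist and Ddx3y, 2 of the 4 libraries at 1 day and 3 of the 4 at 7 days were female. With this sex as a covariate 719 genes were called, and 260 of the 901 no longer passed.

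By limma with Benjamini-Hochberg adjustment, 901 of the 13248 genes (6.8%) differed between 1 and 7 days at an adjusted p of at most 0.05. Of these, 534 (4.03% of genes tested) were higher at 1 day and 367 (2.77%) were lower. The counts by gene list below are to be read beside these shares, as a count near them says little about a list. Without adjustment, 3137 genes reached 0.05. The values of the 2 groups did not overlap for 876 of the 901 and for 2017 of all genes tested (15.2%). Differences were moderate for most: the median difference, 1 day minus 7 days, was 0.73 on the log2 scale among the genes higher at 1 day and −0.65 among those lower, against 0.007 over all genes tested. A difference of at least 1 on the log2 scale was reached by 112 genes higher and 53 genes lower at 1 day. The split of 59.3% of calls higher at 1 day depended on scaling: after quantile normalization 47% were higher (449 genes higher and 507 lower). The genes higher at 1 day were also shorter, with a median length of 2338 bases against 5905 bases for those lower and 4010 bases for all tested, and after each library's trend with gene length was removed 360 genes were higher and 283 lower. No called gene changed sign under any alternative, but the number of calls fell to 17 when the number given in each sample's description, which runs higher at 7 days (83 to 128) than at 1 day (70 to 95), entered as a covariate. What that number stands for is not given in the labels, and its part in the differences cannot be told apart from the day.

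On the first principal component of the 8 libraries, which held 35.4% of the variance, all 4 libraries at 1 day scored above all 4 at 7 days. The scores at 1 day were 31.7, 19.5, 32.3 and −0.9 and those at 7 days −18.3, −24.4, −21.4 and −18.5, a difference in means of 41.3 (exact permutation test, two-sided p = 0.0286, the smallest that 4 against 4 allows). Replicate 4 at 1 day thus lay between the others of its group and the 7 day hearts, and it was the 1 day library nearest to the 7 day mean for 457 of the 901 called genes. Left out, it raised the number of calls to 1462, while leaving out each of the other libraries lowered it to between 349 and 492. In the same way, the count of calls in most gene lists below changed with the library left out, and the range over the 8 fits that left out 1 library is given for the main ones. The highest value of these ranges came without replicate 4 at 1 day unless another library is named. On the second component (15.2%) the exact permutation test gave p = 0.629.

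**Figure D1:**
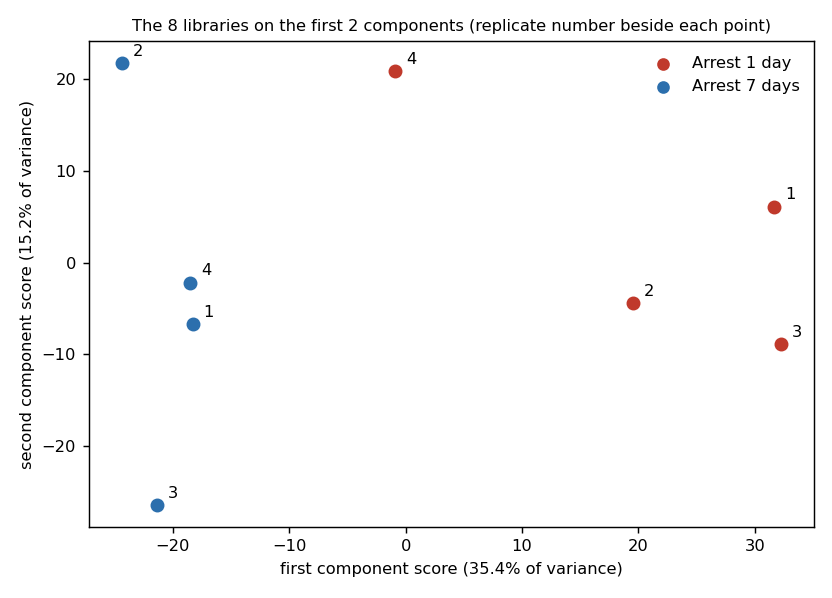
Scores of the 8 Arrest libraries on the first component (x axis, 35.4% of the variance) and the second (y axis, 15.2%), from log2(FPKM + 1) of 13248 genes, with 1 point per library and its replicate number beside it. The 1 day libraries lie to the right of the 7 day libraries, with replicate 4 at 1 day, at −0.9, nearest to them.

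The largest differences were in secreted injury proteins. Serpina3n, a serine protease inhibitor of the acute phase, was measured at 218, 164, 183 and 94.7 FPKM in replicates 1 to 4 at 1 day and at 5.36, 12.7, 8.02 and 3.72 FPKM at 7 days. It was the gene with the largest rise and the smallest p-value of all those tested, 4.35 higher at 1 day on the log2 scale (95% CI ± 0.75, adjusted p = 0.00217). Lcn2, a lipocalin that binds bacterial iron carriers and marks innate activation, was at 56.4, 18.9, 51.2 and 28.6 FPKM at 1 day and 1.69, 4.05, 0.986 and 0.937 FPKM at 7 days. Its difference was 3.76 (95% CI ± 0.86, adjusted p = 0.00487), and neither gene's groups came near each other. The list of 16 acute phase and injury proteins had 8 tested members, of which 3 were higher at 1 day, 0 lower and 5 not past the threshold. Its median difference was 0.894, and the remaining call was Lbp, the lipopolysaccharide-binding protein, which was 1.32 higher at 1 day (adjusted p = 0.0275) and kept its call in 2 of the 8 fits that left out 1 library. The fibrinogen chains Fga, Fgb and Fgg were listed at 0 in all 8 libraries.

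Mt1, a metallothionein that binds zinc and copper, was at 1196, 735, 1556 and 350.3 FPKM at 1 day and 123, 103, 147 and 128 FPKM at 7 days. Replicate 4 was again the lowest at 1 day, yet all 4 values lay above the highest at 7 days, and the difference was 2.74 (95% CI ± 0.86, adjusted p = 0.00781). The neighbouring gene Mt2 was listed at 0 to 0.88 FPKM in these libraries and was not tested. With Mt1 abundant in the same libraries and the assignment of fragments between related genes not given, the values of both genes are uncertain in this respect. Of the 19 metallothioneins and zinc transporters tested, 2 were higher at 1 day and 0 lower.

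The IL-6 family list showed 6 of 21 tested genes higher at 1 day, 0 lower and 15 not past the threshold, with a median difference of 0.454. With a library left out 3 to 9 were called, with 3 without replicate 3 at 1 day or replicate 1 or 4 at 7 days. Osmr, the receptor subunit for oncostatin M, was at 7.01, 6.02, 7.29 and 6.65 FPKM at 1 day and 2.76, 3.49, 2.62 and 2.45 FPKM at 7 days, and was 1.02 higher at 1 day (95% CI ± 0.27, adjusted p = 0.0059). Socs3, the feedback inhibitor that STAT3 induces, was at 14, 6.98, 11.5 and 8.64 FPKM against 3.11, 3.04, 1.97 and 1.94 FPKM, a difference of 1.66 (95% CI ± 0.47, adjusted p = 0.00639). The 4 values of each gene at 1 day were all higher than the 4 at 7 days. Stat3 itself was higher by 0.58 (adjusted p = 0.0247) and the cytokine cardiotrophin-1, Ctf1, by 0.66 (adjusted p = 0.0158). The transcription factor genes Junb and Cebpd completed the calls, with differences of 1.81 and 1.30, but replicate 4 at 1 day lay close to the 7 day values for both: Junb was at 40.3, 56.6, 81.2 and 12.9 FPKM at 1 day and 10.3, 10.6, 9.28 and 12.4 FPKM at 7 days. Each of these calls held in only 1 of the 8 fits that left out a library. Among 25 immediate early transcription factors, 3 were higher at 1 day and 0 lower, with a median difference of 0.712. Leaving out replicate 4 at 1 day raised the calls in this list to 16, of which 15 were higher and 1 lower. Leaving out replicate 1 at 7 days lowered them to 1. With all 8 libraries the calls beside Junb were Myc, a growth-promoting transcription factor, at 6.55, 4.26, 6.21 and 3.36 FPKM at 1 day and 1.19, 1.33, 1.06 and 1.12 FPKM at 7 days (difference 1.45, adjusted p = 0.00632), and Ier3, a stress-induced survival gene (0.76, adjusted p = 0.0185). Tnfrsf1a, the main receptor for TNF, was the 1 call among 22 NF-κB pathway genes, 0.84 higher at 1 day.

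The promoters of 4 genes, chosen after their values were seen, are shown: Mt1, Socs3 and Gsta3 are called members of lists named after metals, STAT3 and NRF2, and Serpina3n had the largest rise. The sequences are RefSeq promoters on GRCm38.p6, 250 bases before to 50 after the start of the gene, and 9578 of the 13245 tested symbols had one. Capitals mark letters that fit the motif named for each gene on either strand: TTCNNNGAA for STAT factors, TGCNCNC for the metal response element and TGACNNNGC for the antioxidant response element. The position is chr8:94178839-94179138, + strand, for Mt1, where the metal response letters occurred 3 times.
Mt1: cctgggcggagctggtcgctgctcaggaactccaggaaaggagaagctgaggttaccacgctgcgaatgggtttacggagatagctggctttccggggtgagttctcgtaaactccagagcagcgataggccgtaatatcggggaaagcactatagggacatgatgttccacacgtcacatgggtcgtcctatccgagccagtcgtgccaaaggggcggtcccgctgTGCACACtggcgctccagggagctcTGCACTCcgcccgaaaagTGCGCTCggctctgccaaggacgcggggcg
Socs3 lies at chr11:117969317-117969616, - strand, with 1 match to the STAT letters.
Socs3: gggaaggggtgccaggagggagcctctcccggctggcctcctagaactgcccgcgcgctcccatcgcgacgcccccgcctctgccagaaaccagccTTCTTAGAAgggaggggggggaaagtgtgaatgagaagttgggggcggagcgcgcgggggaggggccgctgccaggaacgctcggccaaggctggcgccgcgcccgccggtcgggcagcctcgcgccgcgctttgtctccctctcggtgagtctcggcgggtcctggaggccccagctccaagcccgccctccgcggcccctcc
Serpina3n lies at chr12:104406458-104406757, + strand, and the STAT letters are not in this window.
Serpina3n: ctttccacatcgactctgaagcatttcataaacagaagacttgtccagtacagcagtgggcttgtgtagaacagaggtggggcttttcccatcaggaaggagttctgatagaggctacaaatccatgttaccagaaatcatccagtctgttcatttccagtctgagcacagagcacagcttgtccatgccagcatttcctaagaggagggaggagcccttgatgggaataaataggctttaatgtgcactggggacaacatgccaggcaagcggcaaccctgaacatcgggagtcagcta
Gsta3, a glutathione transferase, lies at chr1:21240335-21240634, + strand, with 1 match to the antioxidant letters.
Gsta3: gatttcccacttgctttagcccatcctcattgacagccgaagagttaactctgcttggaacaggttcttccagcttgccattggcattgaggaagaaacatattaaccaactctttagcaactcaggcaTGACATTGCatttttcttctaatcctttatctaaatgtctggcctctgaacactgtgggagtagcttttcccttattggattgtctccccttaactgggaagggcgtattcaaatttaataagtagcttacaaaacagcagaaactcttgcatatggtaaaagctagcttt
The STAT letters were found in 9.7% of the promoters of genes higher at 1 day, 6.1% of those lower, 8% of all tested genes and 9.6% of all promoters in the table. The metal response letters are common, at 58.6% of genes higher at 1 day, 66.8% of those lower and 64.3% of tested genes. The antioxidant letters were in 18.9% of genes higher at 1 day, 16% of those lower, 17.2% of tested genes and 14% of the table. They were in 9 of 22 promoters of the NRF2 list, which was chosen as NRF2 genes and not by the 1 day difference. The STAT letters were in 2 of 19 promoters (10.5%) of the IL-6 family list. For the metallothionein and zinc transporter list the metal response letters were in 14 of 17 (82.4%). These are descriptions of letters and were not tested.

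The antioxidant genes of the NRF2 list were higher at 1 day in 12 of 27 tested members, lower in 0 and not past the threshold in 15, beside the background of 4.03% of all genes higher. The count was 7 to 16 with a library left out, lowest without replicate 1 at 1 day or replicate 1 at 7 days. The list median was 0.607, and 0.533 with 9 calls after the length trend was removed. Hmox1, the haem-degrading oxygenase, was at 54.8, 26.3, 83.3 and 12.9 FPKM at 1 day and 5.31, 5.78, 7.3 and 5.15 FPKM at 7 days, a difference of 2.42 (95% CI ± 1.03, adjusted p = 0.0176). Its 1 day values ranged widely and the 7 day values were close together. The quinone reductase Nqo1 was at 87.8, 52.3, 78.3 and 53.7 FPKM against 32.1, 25.2, 26.5 and 32.2 FPKM (1.18, adjusted p = 0.01). Gsta3 was 1.42 higher at 1 day (adjusted p = 0.00738) and the sulfiredoxin Srxn1 1.33 (adjusted p = 0.0246). Other calls in the list were the thioredoxin Txn1 (0.97), the thioredoxin reductase Txnrd1 (0.73) and the peroxiredoxin Prdx1 (0.61). Gpx4, which reduces lipid peroxides in membranes, was at 709.6, 629, 812 and 623 FPKM at 1 day and 405, 415, 459 and 387 FPKM at 7 days (0.73, adjusted p = 0.0109). Mgst1, a microsomal glutathione transferase outside the list that was picked after its values were seen, had a difference of 1.37 (adjusted p = 0.00466).

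**Figure D2:**
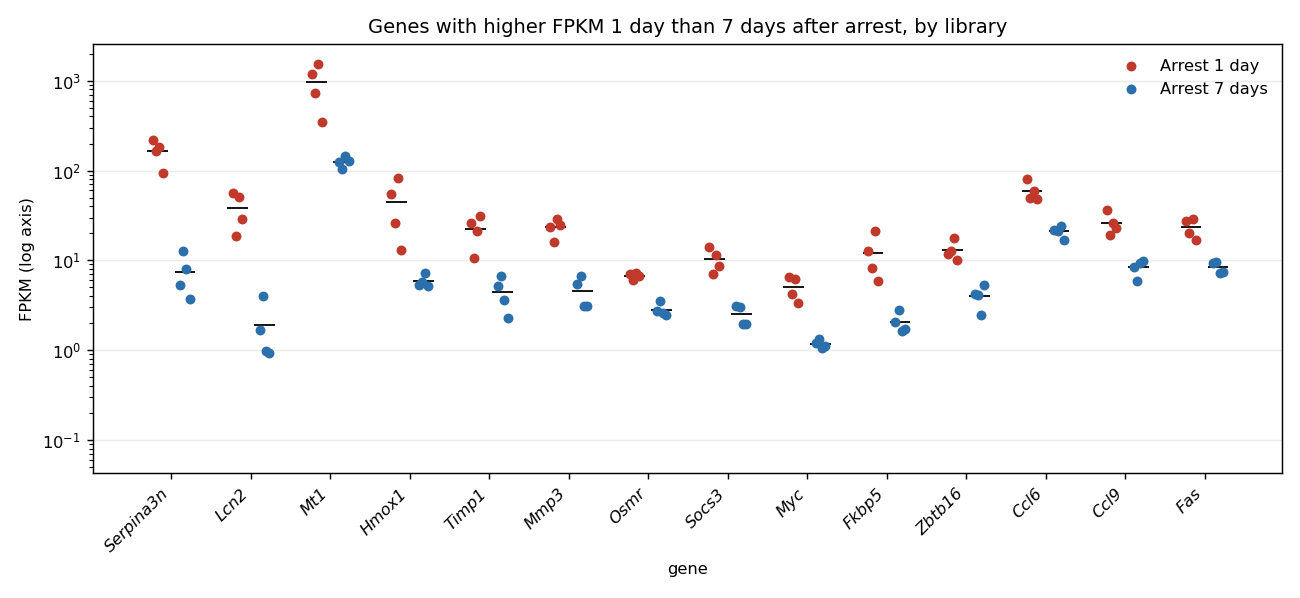
FPKM on a log axis of 14 genes in each of the 4 libraries at 1 day (red) and the 4 at 7 days (blue) after arrest, with the mean as a black line. Every red point lies above every blue point of the same gene, from Serpina3n (94.7 to 218 against 3.72 to 12.7) to Fas (16.8 to 29.1 against 7.28 to 9.6).

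Many nuclear genes of the respiratory chain passed the threshold, and all that did were higher at 1 day. Of 38 genes listed for complex I, 17 were higher, 0 lower and 21 not past the threshold, with a median difference of 0.476. The count was 7 to 18 with a library left out, lowest without replicate 3 at 1 day and 8 without replicate 1, 2 or 4 at 7 days, and 5 with all 37 libraries in the fit. Of 43 genes listed for complexes II to V, 18 were higher and 0 lower, with a median of 0.456. With a library left out 9 to 21 were called, lowest without replicate 2 or 4 at 7 days, and with all 37 libraries 7. Ndufa4 was at 1176, 1061, 1377 and 1069 FPKM at 1 day and 627, 624, 681 and 559.8 FPKM at 7 days (0.90, 95% CI ± 0.27, adjusted p = 0.00738). Uqcr10, a small subunit of complex III, was at 1185, 1189, 1424 and 1126 FPKM against 744, 604, 680.5 and 551 FPKM (0.94, adjusted p = 0.00781). Neither gene's groups overlapped, and Ndufa7 (0.89), Ndufs4 (0.88), the cytochrome oxidase subunit Cox7b (0.91) and the ATP synthase subunit Atp5l (0.86) had differences of like size. These are short genes, with list median lengths of 1532 and 1756 bases. With the length trend removed, 8 of 38 and 14 of 43 were called, with medians of 0.358 and 0.34, and after quantile normalization the medians were 0.235 and 0.192. The 13 protein-coding genes of the mitochondrial genome did not show this: none was called, and their median difference was −0.073. The enzymes of the citric acid cycle did not either, with 0 of 27 called and a median of 0.011.

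Other housekeeping machinery differed in the same direction, with smaller list medians in the main fit. For the proteasome this order depended on the fit. Its median after quantile normalization was 0.245, and with all 37 libraries 14 subunits were called higher. Of 39 proteasome subunits 12 were higher at 1 day and 0 lower (median 0.389, with 10 calls after removal of the length trend, and 6 to 16 with a library left out, lowest without replicate 1 or 3 at 1 day or replicate 2 at 7 days), among them Psma5 at 55.4, 46.9, 62.1 and 40.7 FPKM against 28.4, 29.3, 25.8 and 28.6 FPKM (0.83, adjusted p = 0.0104), Psma6 (0.87) and Psmb2 (0.66). Of 77 mitochondrial ribosomal proteins 11 were higher and 0 lower (median 0.273, 7 to 14 called with a library left out), led by Mrps17 (0.91, adjusted p = 0.00581) and Mrpl20 (0.97, adjusted p = 0.00713). Cytosolic ribosomal proteins gave 1 call in 77, with a median of 0.141 that turned to −0.107 after quantile normalization. Among 33 genes of fatty acid uptake and oxidation 5 were higher at 1 day and 0 lower (median 0.336). This count was 1 without replicate 3 at 1 day, 13 without replicate 4 at 1 day and 0 with all 37 libraries. The triglyceride lipase Pnpla2 was at 232, 236, 252 and 130.2 FPKM at 1 day and 105, 108, 89.9 and 102 FPKM at 7 days (1.02, adjusted p = 0.0176), and the fatty acid transporter Slc27a1 and the enoyl-CoA hydratase Echs1 were higher by 0.59 and 0.54. Hexokinase 2, Hk2, which commits glucose to glycolysis, went the other way: 14.6, 17.6, 16.8 and 24 FPKM at 1 day and 32.6, 33.5, 40.4 and 36 FPKM at 7 days (−0.94, adjusted p = 0.01). The bifunctional phosphofructokinase gene Pfkfb1 was 1.00 higher at 1 day (adjusted p = 0.021), and in all 2 of 29 glucose and glycogen genes were higher and 1 lower.

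In the list of the glucocorticoid receptor and its targets 5 of 22 tested genes were higher at 1 day and 1 lower (median 0.406). Fkbp5, a co-chaperone of the glucocorticoid receptor, was at 12.7, 8.13, 21.3 and 5.9 FPKM at 1 day and 2.08, 2.8, 1.62 and 1.73 FPKM at 7 days (1.96, 95% CI ± 0.70, adjusted p = 0.0108). Zbtb16, a zinc finger transcription factor, was at 11.8, 12.8, 17.9 and 10.2 FPKM against 4.19, 4.14, 2.49 and 5.38 FPKM (1.49, adjusted p = 0.00781). The receptor gene Nr3c1 was lower at 1 day, at 8.18, 8.38, 7.55 and 9.13 FPKM against 11.1, 11.7, 13.6 and 13.9 FPKM (−0.54, adjusted p = 0.0222). The 12 largest rises also held the kinase Map3k6 (1.84), the carbonic anhydrase Car4 (1.92) and apolipoprotein D, Apod (2.13). With the length trend removed, 3 of the 22 glucocorticoid genes were called higher, and 3 to 13 were called in either direction when a library was left out. In the stress lists, 3 of 21 p53 targets were higher at 1 day (1 to 4 called with a library left out), among them the death receptor Fas (1.35, adjusted p = 0.00738), and 2 of 23 ATF4 targets, led by the translation inhibitor Eif4ebp1 (0.93, adjusted p = 0.0159). None of 27 heat shock genes was higher and 3 were lower, led by the Hsp110 chaperone Hsph1 at 5.08, 4.01, 3.25 and 4.67 FPKM against 9.57, 9.05, 7.75 and 9.29 FPKM (−0.93, adjusted p = 0.00817). With a library left out 1 to 6 heat shock genes were called in either direction. The 6 without replicate 4 at 1 day were 1 higher and 5 lower. Hspe1-ps4, a pseudogene of a mitochondrial chaperonin among the largest rises (1.83), may share fragments with its parent gene.

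Calls among myeloid markers were all higher at 1 day. With all 37 libraries in the fit the neutrophil, monocyte, resident macrophage and complement lists had 0 calls. Of 6 tested neutrophil genes 2 were higher, Clec4d, a myeloid lectin receptor, at 10.3, 3.6, 6.92 and 1.18 FPKM against 0.231, 0.791, 0 and 0.427 FPKM (2.04, adjusted p = 0.0266) and Retnlg (1.22, adjusted p = 0.0454). Retnlg reached 0.5 FPKM only at 1 day, so it was tested only through the group where it was high, and its call was lost in all 8 fits that left out a library. The list gave 0 to 2 calls in these fits, 2 without replicate 2 at 1 day. The whole list of 18 neutrophil markers summed to 10.4 to 32.2 FPKM at 1 day and 4.74 to 6.57 FPKM at 7 days, with Ly6g and Elane at 0 in all 8 libraries, and the part of these cells in the other differences was not tested. Among 6 tested inflammatory monocyte genes the chitinase-like protein Chil3 was called (1.07), at 1.31, 0.792, 1.99 and 0.65 FPKM against 0, 0, 0 and 0.0628 FPKM. It too was tested only through the 1 day libraries, and the call was lost when any of these 4 was left out. Resident macrophage genes were higher in 4 of 19 and lower in 0: the hyaluronan receptor Lyve1 at 36.6, 35, 27.7 and 35.9 FPKM against 11.8, 19, 16.1 and 12.5 FPKM (1.15, adjusted p = 0.00738), the haemoglobin scavenger receptor Cd163 (1.01), the mannose receptor Mrc1 (0.59) and Clec10a (1.06). With a library left out 2 to 6 of this list were called in either direction. The 6 without replicate 4 at 1 day were 4 higher and 2 lower. Fizz1, Retnla, was at 5.22, 4.75, 3.49 and 12.2 FPKM at 1 day and 6.77, 17.1, 11.7 and 15.3 FPKM at 7 days and did not pass the threshold (adjusted p = 0.136). In the complement list 2 of 20 tested genes were higher at 1 day and 0 lower. With a library left out 0 to 4 were called, and the 4 without replicate 4 at 1 day were 2 higher and 2 lower.

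Of 24 chemokine genes 5 were higher and 3 lower at 1 day. After removal of the length trend 2 were higher and 3 lower, with all 37 libraries 0 and 1, and with a library left out 2 to 7 were called, lowest without replicate 3 at 1 day or replicate 1 at 7 days. Ccl6 was at 80.6, 50.04, 59.9 and 47.7 FPKM at 1 day and 22, 21.4, 24.2 and 16.6 FPKM at 7 days (1.44, adjusted p = 0.00632), and its relative Ccl9 at 36.6, 18.9, 26.1 and 23.2 FPKM against 8.5, 5.86, 9.42 and 9.79 FPKM (1.52, adjusted p = 0.00738). The monocyte attractant Ccl2 was 1.18 higher (adjusted p = 0.0249), the neutrophil attractant Cxcl1 1.36 and Cxcl14 1.02. The 3 that were lower at 1 day were Ccl8, at 1.94, 0.759, 0.303 and 1.73 FPKM against 6.21, 16.5, 6.22 and 2.81 FPKM (−1.89, adjusted p = 0.0307), the interferon-γ-induced T cell attractant Cxcl9 (−1.23) and the membrane-bound Cx3cl1 (−0.69). Ccl8 was called in 3 of the 8 fits that left out a library.

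The list of MHC class II and dendritic cell genes was lower at 1 day in 4 of 8 tested members and higher in 0. Its median was −0.997, against 2.77% of all genes lower. With all 37 libraries in the fit 0 were called. In the fits that left out a library 1 to 5 were called, with 1 without replicate 3 at 1 day, replicate 1 at 7 days or replicate 2 at 7 days. The dendritic cell markers in it that were tested, Zbtb46 and Clec9a, went the other way and were not called. Itgax, Flt3 and Xcr1 were below 0.5 FPKM in all 8 libraries and were not tested. Zbtb46 was at 2.72, 2.59, 2.82 and 2.71 FPKM at 1 day and 2.57, 2.59, 2.14 and 2.45 FPKM at 7 days. Clec9a was at 1.46, 2.24, 1.9 and 1.09 FPKM against 1.25, 0.749, 1.39 and 0.882 FPKM. All 4 calls were MHC class II genes. H2-Aa was at 7.74, 7.99, 6.42 and 8.55 FPKM at 1 day and 34.6, 30.4, 13.2 and 18 FPKM at 7 days (−1.44, 95% CI ± 0.59, adjusted p = 0.0159). H2-Ab1 was at 11.8, 9.39, 8.92 and 10.6 FPKM against 38, 35.4, 17.1 and 17.2 FPKM (−1.23, adjusted p = 0.0246). The 1 day values were close together, and replicates 1 and 2 at 7 days were higher than replicates 3 and 4. These are the libraries with the airway gene Scgb1a1 and with atrial transcripts, whose part in the difference was not tested. H2-Eb1 (−1.23) and the invariant chain Cd74 (−1.12) followed the same pattern across libraries. The immunoglobulin genes Igkc and Ighm, products of B cells and plasma cells, were lower as well: Igkc was at 0.861, 0.608, 0.145 and 0 FPKM at 1 day and 4.99, 4.88, 3.61 and 3.15 FPKM at 7 days (−1.90, adjusted p = 0.00581), and Ighm at 2.15, 4.73, 1.81 and 2.22 FPKM against 8.88, 13.5, 8.11 and 7.15 FPKM (−1.51, adjusted p = 0.0111). Ighm was the single call among the 2 of 23 lymphocyte markers that could be tested. In the interferon list 2 of 30 genes were lower, 0 higher and 28 not past the threshold, with a median of −0.395. With a library left out 0 to 12 were called. The count was 12 without replicate 4 at 1 day and 0 without replicate 1 at 1 day or replicate 3 at 7 days. Both calls with all 8 libraries are interferon-inducible GTPases, Gbp4 (−1.08, adjusted p = 0.0265) and Iigp1 (−0.87, adjusted p = 0.0239). Another GTPase of this kind, Tgtp2, was among the 12 largest falls, at 0.468, 1.61, 1.16 and 2.17 FPKM against 9.34, 5.1, 6.01 and 3.09 FPKM (−1.53). Of those 12, 5 carry only a predicted name or an identifier and are not described.

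**Figure D3:**
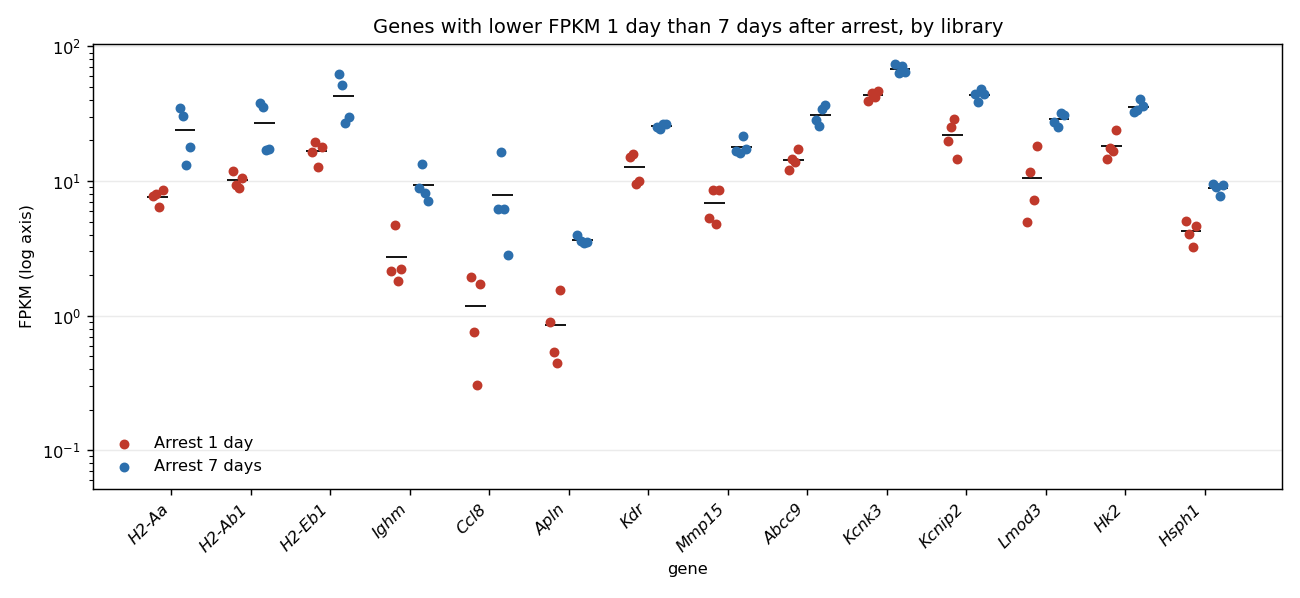
FPKM on a log axis of 14 genes in each of the 4 libraries at 1 day (red) and the 4 at 7 days (blue) after arrest, with the mean as a black line. Every red point lies below every blue point of the same gene, for example for Apln (0.442 to 1.55 against 3.47 to 4.0) and Abcc9 (12 to 17.3 against 25.6 to 36.5).

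Calls among the channel genes were all lower at 1 day. Of 29 cardiac sodium and potassium channel genes 5 were lower and 0 higher, against 2.77% of all genes lower. The median was −0.353, with 3 to 10 calls when a library was left out. Abcc9, the sulfonylurea receptor of the ATP-sensitive potassium channel, was at 12, 14.5, 14 and 17.3 FPKM at 1 day and 28.2, 25.6, 34.5 and 36.5 FPKM at 7 days (−1.06, 95% CI ± 0.32, adjusted p = 0.00738). Kcnip2, the auxiliary subunit of the transient outward current, was at 19.96, 25.2, 28.9 and 14.5 FPKM against 44.6, 38.8, 48 and 44.1 FPKM (−0.99, adjusted p = 0.0165). The groups did not overlap for either, nor for the background potassium channel Kcnk3 (−0.65, adjusted p = 0.00918). In calcium handling 3 of 22 genes were lower and 1 higher (0 to 5 called with a library left out), with the sodium-calcium exchanger Slc8a1 at −0.70 and the ryanodine receptor Ryr2 at −0.55. Of 24 adrenergic and cAMP genes 4 were lower and 0 higher (1 after removal of the length trend, 0 to 3 with a library left out), including the adenylate cyclase Adcy5 (−0.63). These are long genes as a rule: with the length trend removed Ryr2 (adjusted p = 0.0857) and Adcy5 (adjusted p = 0.0595) no longer passed, while Slc8a1 did (adjusted p = 0.0392). Wnk1, a kinase that regulates ion transport and was picked after its values were seen, was at 9.8, 10.9, 9.38 and 11.3 FPKM at 1 day and 20.3, 21, 20.2 and 21.7 FPKM at 7 days (−0.95, adjusted p = 0.00475).

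In the sarcomere and wall stress lists the calls went both ways. The LIM protein Csrp3, a Z-disc stretch sensor, was at 844, 806, 723 and 685 FPKM at 1 day and 509.9, 465, 438 and 418 FPKM at 7 days (0.74, adjusted p = 0.01), and Fhl1 (1.06) and Pdlim5 (0.90) were also higher at 1 day. Lmod3, which nucleates actin thin filaments, was lower, at 4.96, 11.7, 7.23 and 18.1 FPKM against 27.2, 25.2, 32.2 and 31.1 FPKM (−1.51, adjusted p = 0.0207), as was Lsmem1 (−1.99, adjusted p = 0.0165), a small membrane protein gene. Titin, Ttn, was −0.67, but its call was lost when the length trend was removed (adjusted p = 0.252). Of 29 sarcomere genes 3 were higher and 2 lower, and of 19 wall stress genes 3 were higher and 1 lower. With a library left out 2 to 8 and 3 to 6 of these were called. Nppb, the gene of B-type natriuretic peptide, was at 1881, 2288, 586 and 576 FPKM at 1 day and 498, 368, 359 and 336 FPKM at 7 days. Its lowest value at 1 day lay above its highest at 7 days, but the difference of 1.51 (95% CI ± 0.97) did not pass the threshold (adjusted p = 0.0694). Ankrd1, a stretch-induced nuclear protein, did not pass either (0.90, adjusted p = 0.149), and both were picked after their values were seen. The ubiquitin ligase subunit Fbxo40 was lower at 1 day, with a log2 difference of −0.65, as was the α-catenin gene Ctnna3 of the intercalated disc, at −0.63 (adjusted p = 0.0159).

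Matrix proteases and their inhibitors were higher in 5 of 20 tested and lower in 1, with 3 to 10 called when a library was left out. Mmp3, stromelysin-1, was at 23.4, 16.1, 28.9 and 24.9 FPKM at 1 day and 5.49, 6.64, 3.08 and 3.07 FPKM at 7 days (2.15, 95% CI ± 0.54, adjusted p = 0.00581). Timp1, an inhibitor of these proteases, was at 26, 10.6, 21.2 and 31.3 FPKM against 5.23, 6.7, 3.58 and 2.31 FPKM (2.07, adjusted p = 0.0111). Both differed without overlap, as did Mmp19 (0.82), whereas the membrane-type protease Mmp15 was lower at 1 day, at 5.33, 8.52, 4.78 and 8.64 FPKM against 16.7, 16, 21.7 and 17.3 FPKM (−1.31, adjusted p = 0.00781). Of 21 collagen chains 0 were higher and 2 lower, Col15a1 (−1.39) and Col14a1 (−1.21), with a list median of −0.268 and 0 to 6 calls with a library left out. Each of these calls held in 1 of the 8 fits that left out a library. The small proteoglycan decorin, Dcn (0.73), the collagen cross-linking enzyme Lox (1.34) and the dipeptidase Dpep1 (1.18) were higher at 1 day, and the matricellular protein Sparcl1 was lower (−0.73, adjusted p = 0.00781). Lrrc15, a membrane protein of activated fibroblasts picked after its values were seen, was at 0.762, 0.719, 0.627 and 0.844 FPKM at 1 day and 3.89, 3.61, 2.96 and 2.95 FPKM at 7 days (−1.32, adjusted p = 0.00466).

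In the vascular lists, Apln, the ligand of the apelin receptor, was at 0.897, 0.534, 0.442 and 1.55 FPKM at 1 day and 4, 3.6, 3.47 and 3.5 FPKM at 7 days (−1.36, 95% CI ± 0.40, adjusted p = 0.00738). Kdr, the main endothelial VEGF receptor, was at 15, 15.8, 9.51 and 10.1 FPKM against 25.1, 24.2, 26.7 and 26.3 FPKM (−1.0, adjusted p = 0.0108), and its ligand gene Vegfa was lower, with a log2 difference of −0.58 (adjusted p = 0.0341). Placental growth factor, Pgf, was higher at 1 day, at 5.13, 5.7, 9.36 and 4.41 FPKM against 1.91, 1.59, 2.29 and 1.08 FPKM (1.37, adjusted p = 0.0104). In all, 1 of the 27 apelin and endothelial growth genes was higher and 3 were lower (3 to 11 called with a library left out). Bcl6b, a transcriptional repressor picked after its values were seen, had a difference of −1.34 (adjusted p = 0.00466). None of 17 endothelial activation genes was called, and the smooth muscle myosin Myh11 had a difference of −0.49 (adjusted p = 0.307).

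The remaining lists gave few calls. In 19 clock genes 1 was higher at 1 day, in 22 genes of atrophy and autophagy 2 were higher and 1 lower, and in 15 iron genes 1, Hmox1, was higher. The ER stress list (23 tested) had 0 calls and the proliferation list 1 of 16, lower at 1 day. The proliferation list gave 0 to 2 calls with a library left out and 0 after removal of the length trend. Of 16 fibroblast genes 3 were higher and 2 lower, and of 27 matricellular genes likewise 3 and 2. The smooth muscle list gave 1 of 19, Abcc9, which it shares with the channels. Markers of other tissues that the piece could hold were called in 1 of 3 adipose and 1 of 2 skeletal muscle genes, both higher at 1 day, and in 0 of 7 atrial, 0 of 8 platelet, 0 of 8 red cell, 0 of 2 liver, 0 of 5 nerve, 0 of 8 epicardial and 0 of 6 endocardial genes, while 0 lung genes could be tested. The red cell genes summed to 1570 to 1730 FPKM at 1 day and 1380 to 3730 FPKM at 7 days. All 8 tested red cell genes had a difference below 0, with a median of −0.446. With a library left out 0 to 3 of them were called, with 3, all lower at 1 day, without replicate 4 at 7 days.

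**Figure D4:**
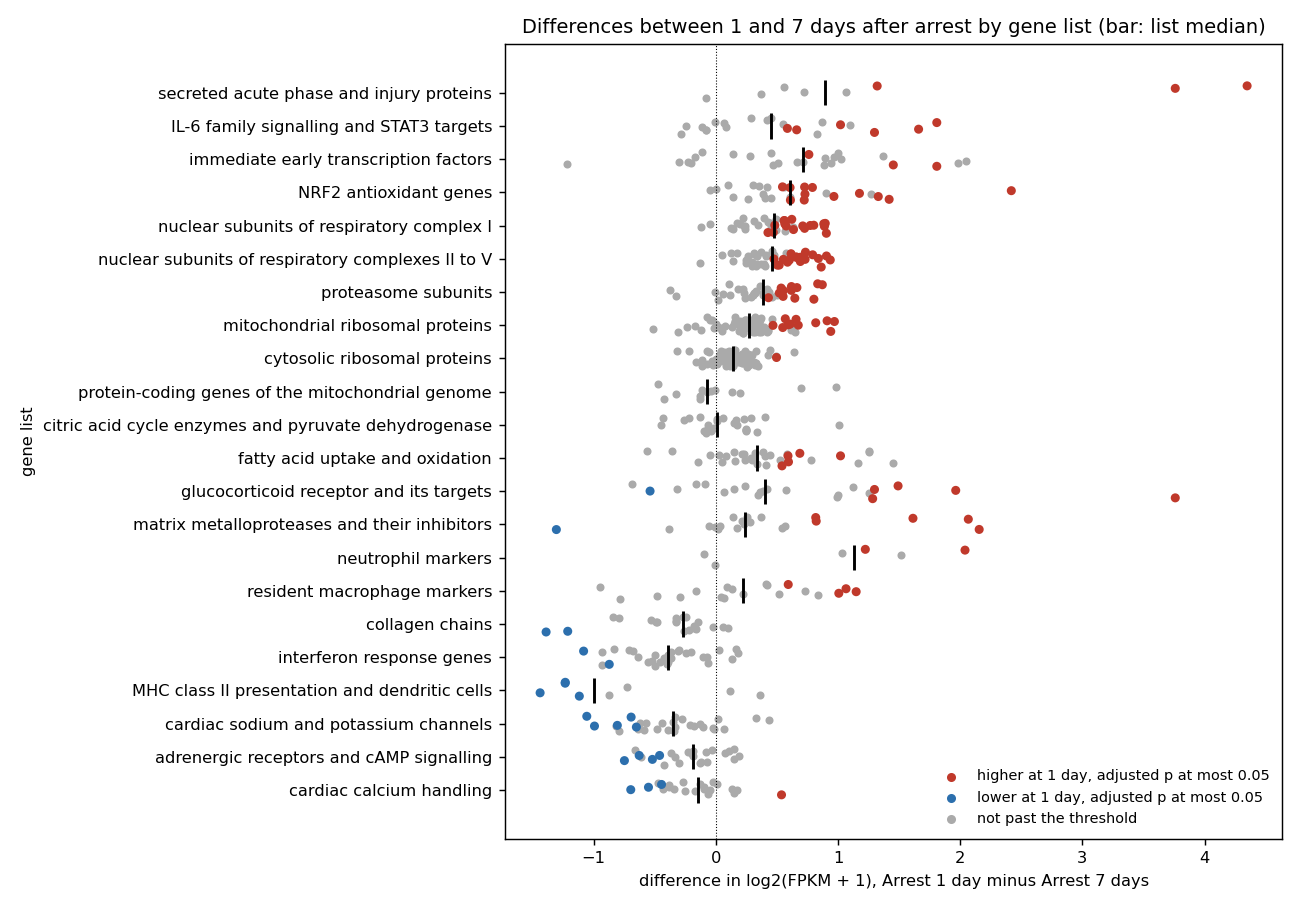
Difference in log2(FPKM + 1), 1 day minus 7 days after arrest (x axis), for each tested gene of 22 lists (rows), with called genes in red (higher at 1 day) or blue (lower) and a black bar at the list median. The medians run from 1.128 for the neutrophil markers to −0.997 for the list of MHC class II and dendritic cell genes. The respiratory chain rows hold 17 and 18 red points and no blue ones.

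The Adr mice allowed the same days to be compared in separate animals that were not arrested. In Adr too, the number in the sample description ran higher at 7 days (92 to 115) than at 1 day (71 to 102). Its part in the Adr differences was not tested. Between 1 and 7 days after adrenaline, 0 of the 13248 genes passed an adjusted p of at most 0.05 by limma, while 1701 (12.8%) reached 0.05 without adjustment. Of the 534 genes higher at 1 day in Arrest, 500 (93.6%) were also higher at 1 day in Adr, with a median difference of 0.38, against 51.4% of all genes tested. Of the 367 lower genes, 341 (92.9%) were lower, with a median of −0.33, against 48.6% of all. An unadjusted p of at most 0.05 in the same direction was reached by 41.2% of the higher and 42.2% of the lower genes, against 6.84% and 6% of all genes tested. Across the 13248 genes, which are not independent replicates, the Pearson correlation of the 2 arms' differences was 0.5. The difference in Adr was 3.16 for Serpina3n, 1.38 for Lcn2, 1.56 for Mt1, 1.72 for Timp1, 1.52 for Mmp3, 1.5 for Zbtb16, −1.22 for Apln and −0.67 for Abcc9. The complex I list had a median of 0.22 in Adr, that of complexes II to V 0.23, the proteasome 0.231 and the NRF2 list 0.281. The interferon list, by contrast, had a median of 0.038 and the immediate early list −0.299.

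Whether the 1 to 7 day difference itself differed between Arrest and Adr was tested as an interaction, and 0 genes passed (lowest adjusted p = 0.561). Without adjustment 808 genes reached 0.05. The unadjusted interaction p was 0.00381 for Lcn2, 0.00687 for Socs3, 0.000359 for Mrpl20 and 0.00108 for Iigp1. Chuk, a kinase subunit of the NF-κB pathway, had the lowest of those named, 9.97e-05, with −0.29 in Arrest (adjusted p = 0.167) and 0.53 in Adr. A difference between the arms is therefore not shown for any gene. The other Arrest libraries, 4 taken at 0.5 days and 4 at 3 days, did not enter the rule. Of the 534 genes higher at 1 day than at 7 days, 461 (86.3%) were higher at 0.5 than at 3 days, and of the 367 lower genes, 312 (85%) were lower, against 49.9% and 50% of all genes tested.

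**Figure D5:**
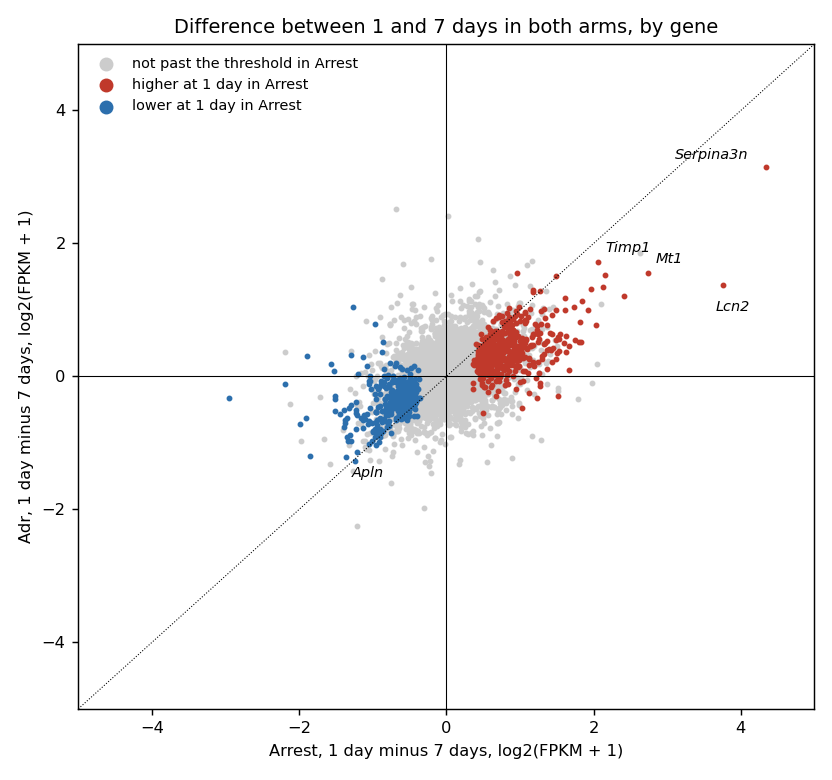
Difference in log2(FPKM + 1) between 1 and 7 days for 13248 genes in Arrest (x axis) and in Adr (y axis), 1 point per gene, with genes called in Arrest in red (higher at 1 day) or blue (lower) and equal differences on the dotted line. Most red points have positive and most blue points negative values in Adr (500 of 534 and 341 of 367), while Lcn2 at 3.76 in Arrest lies at 1.38 in Adr.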

How the data were processed

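Novogene sequenced RNA of mouse left ventricle for the authors, who had reads checked with FastQC and aligned with HISAT2, and the authors deposited FPKM values for 56748 genes in 37 libraries, with gene lengths. The genome build, annotation and strand setting are not given in the sources used here, so no deposited coordinates are printed. FPKM times gene length fell on whole multiples of 1 fragment within a tolerance of 0.01 for 100% of values, which gave the fragments per library. Counting error limits low genes most, and fragments ranged from 13.76 M to 28.54 M over the 8 libraries.

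Groups followed the sample labels. Genes with at least 0.5 FPKM in 4 of the 8 libraries entered limma 3.58.1 (R 4.3.3) on log2(FPKM + 1), with a mean-variance trend, Benjamini-Hochberg adjustment over 13248 genes and a threshold of 0.05. A difference on this scale understates the change of low genes. The same fit was run on the Adr libraries and on the interaction. Exact permutation tests (scipy) served single values. Of the 13248 genes, 23 passed the filter only through 1 day libraries and 26 only through 7 day libraries, 27 of these being called.

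The members and the 55 gene lists were chosen with earlier results of these data known. Genes named in the text were the 12 largest rises and 12 largest falls among called genes without overlap and with a mean of at least 1 FPKM, up to 4 members per list with the smallest p, and some fixed names, except for a result that is not reported here. Others are said to have been picked after their values were seen, except further called members of a list counted in the same sentence. The alternatives were other pseudocounts, filters, scalings, covariates, weights and sets of libraries. The fit was tested on simulated data.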

Additional observations from a re-analysis of the deposited data

Results flagged for a closer look

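A library was singled out where its gap to the nearest of the other 3 in its group passed the 95% critical value of Dixon's test, which chance exceeds in about 1 of 20 groups. 17 of the 218 groups of values of named genes passed it, and 2 library measures. At 7 days, replicate 4 had 28.5 M fragments against 13.8 to 14.9 M in the others, and at 1 day replicate 1 had 16812 genes above 0 against 18160 to 18436. Myl7 was at 157 FPKM in replicate 2 at 7 days against 0.751 to 6.14 in the others, and in the same library Apod was at 6.41 FPKM against 2.4 to 2.9, Lox at 3.92 against 2.24 to 2.49, and Chuk at 5.87 against 7.26 to 7.42. In replicate 4 at 1 day, Ccl2 was at 11.4 FPKM against 5.0 to 5.78, Ier3 at 33.6 against 24.5 to 25.9 and Pnpla2 at 130.2 against 232.5 to 251.6. In replicate 1 at 1 day, Dcn was at 288 FPKM against 213 to 221, Hspe1-ps4 at 8.01 against 2.26 to 2.98 and Sparcl1 at 50.01 against 62.05 to 63.45. Single libraries also stood out for Echs1 (69.8 FPKM in replicate 3 at 1 day against 57.5 to 58.5), Ighm (4.73 in replicate 2 at 1 day against 1.81 to 2.22), Mmp19 (1.41 in replicate 2 at 1 day against 2.43 to 2.59), Mgst1 (21.1 in replicate 1 at 7 days against 25.9 to 26.4) and Stat3 (15.3 in replicate 3 at 7 days against 11.7 to 12.3). Chil3 (0.0628 FPKM) and Retnlg (0.403 FPKM) were above 0 at 7 days in replicate 4, the deepest library, and listed at 0 in the other 3.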

How the results depend on the processing

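All 901 calls kept their direction in the alternatives in which they were tested. The number of calls was 847 with a pseudocount of 0.1, 956 after quantile normalization, 643 with the gene length trend removed and 1006 with voom on recovered fragments. It moved by over 1.5 times to 1370 with sample quality weights, 539 with all 16 Arrest libraries in the fit, 370 with all 37 libraries, 323 without the filter (over 26176 genes), and 419 (295 higher, 124 lower) with the replicate block, although samples with the same number did not deviate together (correlations of −0.01, −0.05, 0.08 and 0.01). With the number in the sample description as a covariate 17 genes were called, and 15 were called among the libraries with numbers under 100, which leave 2 libraries at 7 days. These numbers ran from 70 to 95 at 1 day and 83 to 128 at 7 days, what they stand for is not given in the labels, and their part in the differences was not tested further. Leaving out 1 library gave 349 (without replicate 3 at 1 day) to 1462 calls (without replicate 4 at 1 day), with 399 and 485 without replicates 1 and 2 at 1 day and 412, 455, 492 and 383 without replicates 1 to 4 at 7 days, and 273 genes were called in all 8 of these fits. Without Adr replicate 3 at 3 days, an alternative chosen after seeing the data, the fit of all other libraries called 731. The Adr comparison gave 1 call with a pseudocount of 0.1 and 0 to 8 when 1 library was left out (5 without replicate 1 and 8 without replicate 2 of Adr at 1 day), and the interaction 0 to 2 (2 without Arrest replicate 4 at 1 day, 1 without Arrest replicate 4 at 7 days), with 0 for both under the replicate block. For the 109 named genes, 103 of them called, 2122 recomputed values kept their side of the threshold, 585 no longer passed, 8 newly passed and 0 changed direction. The first component separated the groups by 22.2 to 110 under other choices (exact p = 0.0286) and by 39.6 to 48.5 with 1 library left out, where the smallest possible p is 0.0571.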
